A study of Homo sapiens with 7 samples.

Results

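Monocytes sense microbes, antibodies and neighbouring cells through receptors at their surface, and 10 such genes were followed in RNA sequencing of U937, a human monocytic leukaemia line. The genes were chosen by name: CD14, TLR2 and TLR4, FCGR1A and FCGR2A, CD163, CCR2, CD33, CD4 and CD86. All 10 were found among the 26364 gene symbols of the tables. MT_mock was the parental U937 MT line in 3 libraries. B412_mock was U937 B412, in 2 libraries, a derivative in which zinc sulfate turns on the oncogenic fusion PLZF/RARA. B412_GSK126 was the same derivative, in 2 libraries, kept for 96 h in 2.5 µM GSK126, an inhibitor of the histone methyltransferase EZH2. All 7 libraries, the parental ones included, carried 0.1 mM ZnSO4, and for the B412 line the labels' protocols give 24 h of zinc ahead of the drug. The labels do not say whether replicates were separate cultures or how B412 cells were cloned, so the p-values speak for the spread among these 7 libraries, and that spread may be purely technical. B412 cells kept free of zinc were not analysed here, so the fusion and other properties of the B412 line cannot be told apart.

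Toll-like receptors recognise molecules shared by many microbes. TLR4 answers to lipopolysaccharide, which CD14 hands to it and to its partner LY96, while TLR2 answers to bacterial lipoproteins, and both signal through the adaptor MYD88. Fc gamma receptors bind the constant part of IgG: FCGR1A is the high-affinity form and signals through the separate FCER1G chain, whereas FCGR2A carries its own signalling motif. CD163 takes up haemoglobin bound to haptoglobin, CCR2 is the receptor for the chemokine CCL2, CD33 is an inhibitory lectin that binds sialic acid, CD86 is a costimulatory ligand for T cells, and CD4, known from T cells, is also present on human monocytes. CD14, CCR2 and CD163 are commonly used to tell mature monocytes and macrophages from their precursors.

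The sequence before the annotated start of 5 members is shown because these genes carry the contrasts described below: TLR4 and TLR2, FCGR1A and FCGR2A, and CD14, which was barely read. Each run is the 250 bases upstream of the RefSeq start (GRCh38.p14), 5′ to 3′ on the gene's strand. Capitals mark GAGGAA or its reverse complement TTCCTC, letters found in sites of the myeloid factor PU.1, of the ETS family. The shorter core GGAA that ETS-family factors share was neither marked nor counted. The windows are chr9:117704153-117704402 (TLR4, + strand), chr4:153684030-153684279 (TLR2, + strand), chr1:149782444-149782693 (FCGR1A, + strand), chr1:161505207-161505456 (FCGR2A, + strand) and chr5:140633176-140633425 (CD14, - strand).
TLR4: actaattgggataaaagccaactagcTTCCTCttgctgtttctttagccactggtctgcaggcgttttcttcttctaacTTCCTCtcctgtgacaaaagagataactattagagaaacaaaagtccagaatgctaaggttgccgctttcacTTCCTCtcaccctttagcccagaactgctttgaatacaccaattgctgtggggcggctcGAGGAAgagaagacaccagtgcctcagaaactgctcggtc
TLR2: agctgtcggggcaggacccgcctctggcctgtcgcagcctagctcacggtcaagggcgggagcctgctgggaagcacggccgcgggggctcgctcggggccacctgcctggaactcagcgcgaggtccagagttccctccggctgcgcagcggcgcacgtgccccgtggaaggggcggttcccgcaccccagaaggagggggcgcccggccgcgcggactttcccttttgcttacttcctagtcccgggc
FCGR1A: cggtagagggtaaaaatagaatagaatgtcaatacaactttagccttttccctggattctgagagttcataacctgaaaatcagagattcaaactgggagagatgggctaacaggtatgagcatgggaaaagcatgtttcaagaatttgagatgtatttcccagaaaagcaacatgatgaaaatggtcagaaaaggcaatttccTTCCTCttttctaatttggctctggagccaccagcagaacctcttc
FCGR2A: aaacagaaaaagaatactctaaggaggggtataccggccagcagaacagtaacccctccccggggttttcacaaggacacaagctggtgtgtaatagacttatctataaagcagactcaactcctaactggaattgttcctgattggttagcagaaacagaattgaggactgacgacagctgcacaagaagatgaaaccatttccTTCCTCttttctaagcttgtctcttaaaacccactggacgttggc
CD14: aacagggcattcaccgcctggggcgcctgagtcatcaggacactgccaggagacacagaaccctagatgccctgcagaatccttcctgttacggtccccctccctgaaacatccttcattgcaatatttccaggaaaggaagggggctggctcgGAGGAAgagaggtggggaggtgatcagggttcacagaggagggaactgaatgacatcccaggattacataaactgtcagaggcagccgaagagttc

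The table of promoters held 9 of the 10 members, and 7 of those 9 had the letters on either strand in at least 1 window. Over all 35114 windows of that length the share was 23.6%. That share counts windows and not genes, and CD86 had a second window without a match. TLR4 had 4 such matches, beginning 224, 171, 99 and 40 bases before the start, and TLR2 had 0. FCGR1A and FCGR2A each had 1 match, at 46 and 45 bases, inside a stretch of 20 bases that both share, atttccTTCCTCttttctaa, and that no other window held. The TLR2 window was rich in CpG, with 26 of them and a GC content of 72.4%, against medians of 11 and 58% over all windows. The windows of TLR4, FCGR1A, FCGR2A and CD14 held 5, 1, 4 and 5 CpG. A match of letters is a description of the sequence and not of binding.

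Of the 10 members, 5 had at least 1 count in each of the 7 libraries (CD4, CD33, FCGR2A, TLR2 and TLR4), and the other 5 (CD86, FCGR1A, CD14, CD163 and CCR2) had 0 in at least 1. Values are in CPM, a gene's counts scaled to a common library total. Scaled also by transcript length, the order of the mean levels over all libraries was CD4 (117 CPM per kb), CD33 (24.3), FCGR2A (7.65), TLR2 (2.75), TLR4 (2.23), CD86 (1.16), FCGR1A (0.508), CD14 (0.0627), CD163 (0.0617) and CCR2 (0.0198). CD4 was above CD33, CD33 above FCGR2A and FCGR2A above TLR2 in 7 of 7 libraries. TLR2 stood above TLR4 in 6 of 7, TLR4 above CD86 in 6 and CD86 above FCGR1A in 5, so none of these neighbours were separated beyond their spread. FCGR1A stood above CD14 in 6, and both had 0 counts in MT_mock replicate 2. Among the last 3 genes, CD14 was above CD163 in 2 libraries, with the order reversed in B412_mock replicate 2 and B412_GSK126 replicate 2. CD163 was above CCR2 in 3 libraries, the only ones in which either was read, and both had 0 counts elsewhere.

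**Figure D1:**
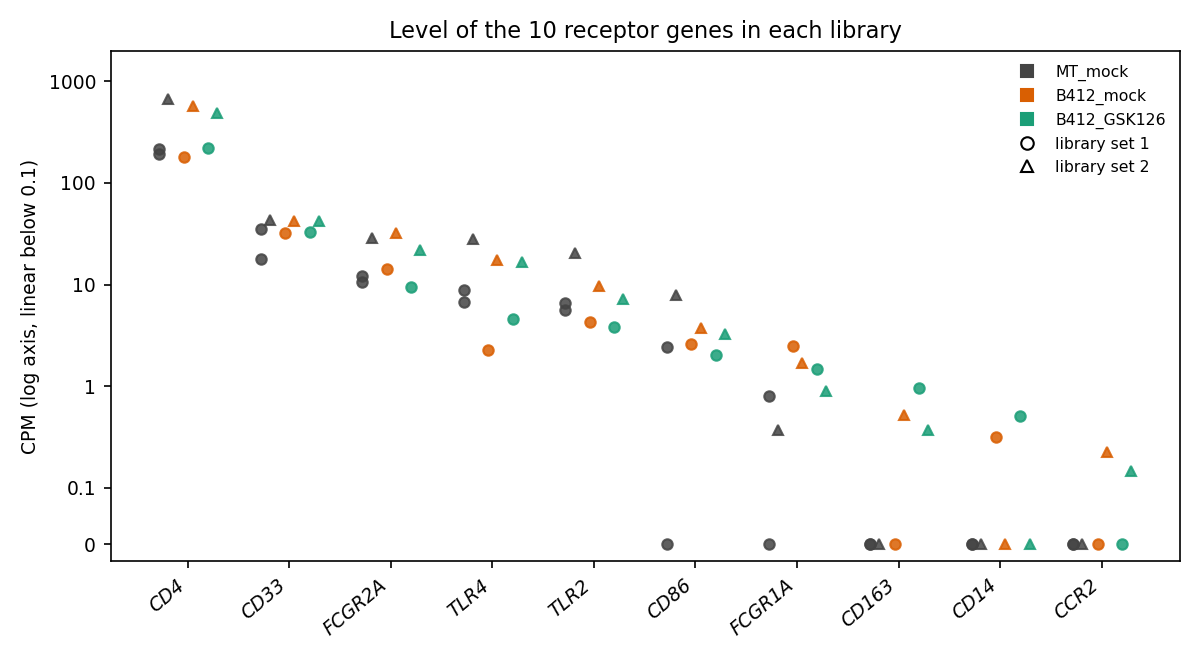
CPM of each member in each library, on a log axis that is linear below 0.1 so that 0 can be shown; colour gives the group, circles library set 1 and triangles library set 2. CD4 lies between 181 and 677 CPM, and CD14, CD163 and CCR2 stay below 1 CPM in every library.

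CD14, the lipopolysaccharide co-receptor, had 0 counts in the 3 MT_mock libraries, 4 and 0 in B412_mock and 7 and 0 in B412_GSK126. Over the MT_mock group, 0 counts allow a level of up to 0.07 CPM. CCR2 had 0 counts in MT_mock, 0 and 3 in B412_mock and 0 and 2 in B412_GSK126. CD163 had 0 counts in MT_mock, 0 and 7 in B412_mock and 13 and 5 in B412_GSK126. None of the 3 was detected in MT_mock, each was read in the B412 groups only at single libraries or a few counts, and all 3 fell below the filter and were not tested. The ratio of CD163 counts between B412_GSK126 and B412_mock, 18 against 7, was 2.49 with an exact 95% binomial interval of 0.99 to 7.04, which covers counting error only and not the spread between libraries.

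**Figure D2:**
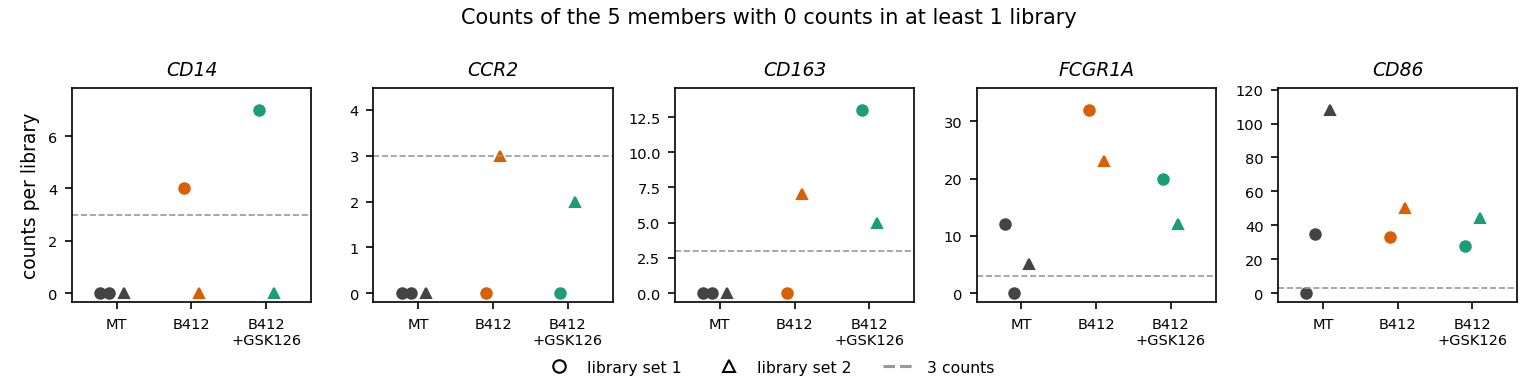
Counts per library of the 5 members with 0 counts in at least 1 library, by group, with circles for library set 1, triangles for library set 2 and a dashed line at 3 counts. CD14, CCR2 and CD163 are at 0 in all 3 MT_mock libraries, and FCGR1A is higher in both B412_mock libraries (32 and 23 counts) than in MT_mock (12, 0 and 5).

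The 7 libraries fell into 2 sets along the first principal component (65.7% of the variance of log2 CPM), and most of the members followed it. Replicates 1 and 2 of MT_mock fell with replicate 1 of each B412 group (library set 1), and replicate 3 of MT_mock with replicate 2 of each B412 group (library set 2). No label names a batch, and what parted the sets was not tested. Group differences are therefore given from an edgeR fit without a covariate and from one with the set as an additive term, beside the differences within each set. The common biological coefficient of variation was 58.3% and 21.9% in these fits, and since the sets come from these same counts, p-values with the term may be too small.

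CD4 was at 216, 194 and 677 CPM in MT_mock, 181 and 569 in B412_mock and 219 and 491 in B412_GSK126. The 3 libraries of set 2 were all above the 4 of set 1, and the groups overlapped fully. TLR4 was at 6.8, 8.94 and 27.9 CPM in MT_mock, 2.28 and 17.3 in B412_mock and 4.62 and 16.8 in B412_GSK126, again with set 2 on top. FCGR2A lay between 9.46 and 14.1 CPM in set 1 and between 21.9 and 32.1 in set 2. For TLR2 the ranges were 3.81 to 6.59 and 7.2 to 20.3 CPM, for CD33 17.7 to 35.2 and 42.6 to 43.1, and for CD86 0 to 2.59 and 3.26 to 7.96. In all, 6 of the 7 tested members were higher in set 2 without overlap, where 35.3% of the 13521 tested genes were. FCGR1A was the exception, at 0 to 2.51 CPM in set 1 and 0.368 to 1.71 in set 2. Of 15 tested adaptors and kinases downstream of Toll-like receptors 13 were higher in set 2 without overlap, against 1 of 9 tested costimulatory genes. Of 6 tested relatives and co-receptors of the Toll-like receptors, 1 was higher and 2 were lower without overlap. Higher without overlap were also 3 of 9 Fc receptor genes, 5 of 10 of the CD33 family list and 0 of 9 chemoattractant receptors. For scavenger receptors and lectins it was 2 of 9, and for cytosolic sensors 4 of 14. Lower in set 2 without overlap were 1 costimulatory gene, 1 of the CD33 family list, 2 scavenger receptors and lectins and 2 cytosolic sensors. The members, the adaptors and kinases, the Fc receptor genes and the chemoattractant receptors each had 0 lower. The share of all tested genes that were lower was not computed. Since the sets were defined on these counts, these are descriptions with no test.

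B412_mock was set against MT_mock to ask which receptors differ between the PLZF/RARA line and its parent. Both Toll-like receptors lay lower and FCGR1A lay higher in B412_mock within each set, while CD4, CD33 and FCGR2A differed little. Of the 7 tested members 0 passed an adjusted p of 0.05 in edgeR, without or with the library-set term. Over all 13521 genes these fits called 0% and 2.35%. At an unadjusted p under 0.05 there were 0 members without the term and 3 with it, 1 higher and 2 lower. The median log2 change of the tested members was 0.05 with the term, beside -0.01 over all genes.

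TLR4 came nearest to the threshold. Its mean was 14.6 ± 11.6 CPM (SD, n = 3) in MT_mock and 9.79 ± 10.6 CPM (SD, n = 2) in B412_mock, a spread that follows the sets. Within set 1 the log2 difference was -1.70 and within set 2 it was -0.76. With the term TLR4 was 2.32-fold lower (log2 change -1.21 ± 0.338 SE, edgeR adjusted p = 0.096), and without it the log2 change was -0.66 ± 0.992 (adjusted p = 1). TLR4 passed with the set term in DESeq2 (adjusted p = 0.0253) and in edgeR when low counts were not filtered (adjusted p = 0.00976), but never in the 7 edgeR fits with the term that each omitted 1 library, where adjusted p ran from 0.0612 to 1. In the fit without the term the log2 change was 0.15 once MT_mock replicate 3 was omitted. LY96, which presents lipopolysaccharide together with TLR4, had a log2 change of -0.08 ± 0.575 (SE, adjusted p = 0.969) at 2.35 ± 0.846 CPM (SD, n = 3) in MT_mock.

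TLR2 was at 5.59, 6.59 and 20.3 CPM in MT_mock and at 4.24 and 9.65 in B412_mock. Its log2 differences were -0.48 within set 1 and -1.13 within set 2, so both B412_mock libraries were below their MT_mock counterparts of the same set. The log2 change with the term was -0.78 ± 0.343 (SE, edgeR adjusted p = 0.319).

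FCGR1A was read 12, 0 and 5 times in MT_mock against 32 and 23 times in B412_mock, and was the only tested member whose groups did not overlap, against 11.1% of all tested genes. Its mean level was 0.392 ± 0.405 CPM (SD, n = 3) in MT_mock and 2.11 ± 0.569 CPM (SD, n = 2) in B412_mock. The log2 change with the term was 2.45 ± 1.02 (SE, edgeR adjusted p = 0.291), and the ratio of the summed counts was 5.29 with an exact 95% counting interval of 3.02 to 9.72. For FCGR1B, a near-identical copy with which reads can be shared, MT_mock gave 1, 8 and 1 counts and B412_mock 7 and 3, so how reads were divided between the copies is uncertain. The low-affinity receptor FCGR2A had a log2 change of 0.22 ± 0.232 (SE, adjusted p = 0.731). Its neighbours FCGR2B and FCGR2C, which resemble it closely, had 36, 169 and 35 counts and 4, 14 and 1 counts in MT_mock.

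CD33, the sialic acid-binding lectin, was at 35.2, 17.7 and 43.1 CPM in MT_mock and at 32.3 and 42.6 in B412_mock, with MT_mock replicate 2 lowest. The log2 change with the term was 0.15 with a 95% interval of -0.43 to 0.73. CD4 had a log2 change of -0.21 with an interval of -0.56 to 0.15, the narrowest among the members. CD86, the costimulatory ligand, was counted 0, 35 and 108 times in MT_mock against 33 and 50 times in B412_mock. The 3 MT_mock libraries spanned the B412_mock ones, the differences within the sets had opposite signs (2.21 and -1.14), and the 95% interval of -2.35 to 2.46 left the direction undecided.

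**Figure D3:**
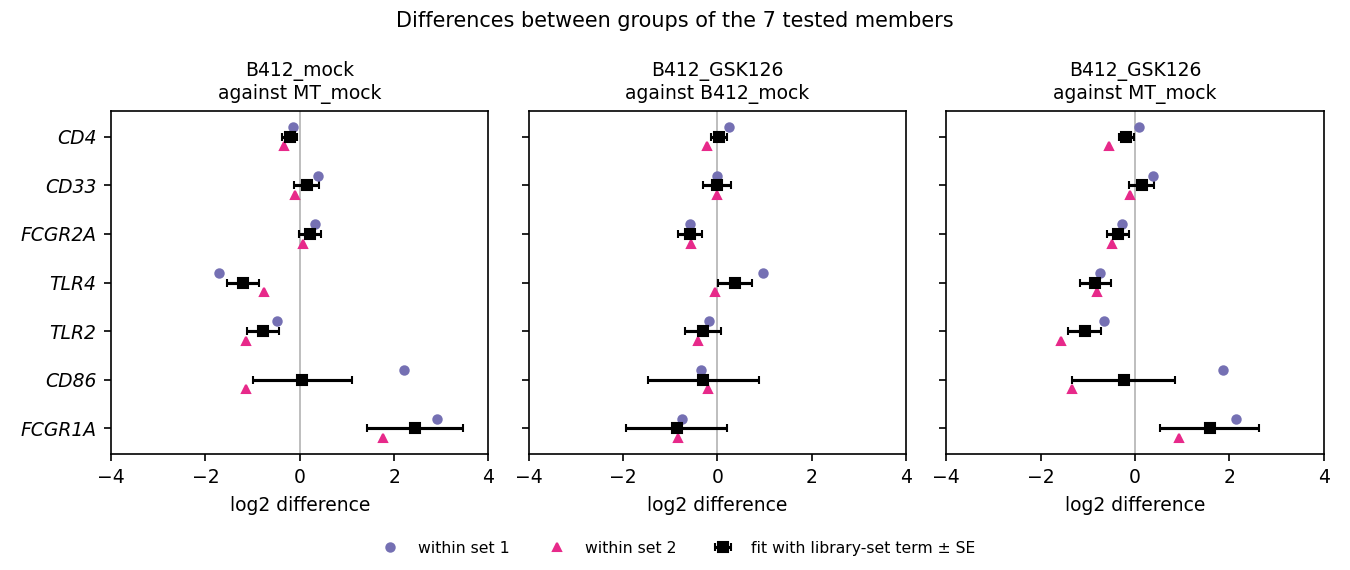
Log2 difference of the 7 tested members in each comparison: black squares with bars give the edgeR change with the set term ± SE, circles the difference within set 1 and triangles that within set 2. For B412_mock against MT_mock, TLR4 and TLR2 lie below 0 and FCGR1A above 0 in both sets, while CD86 points in opposite directions.

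B412_GSK126 was set against B412_mock to read the effect of inhibiting EZH2 in the PLZF/RARA line. No member passed in edgeR, without or with the set term, and over all genes these fits called 0% and 0%. In DESeq2, 0 members passed in either form. At an unadjusted p under 0.05 there were 0 members without the term and 1 with it, FCGR2A, at 14.1 and 32.1 CPM in B412_mock and 9.46 and 21.9 with GSK126. The log2 differences of FCGR2A were -0.59 and -0.56 within the sets, and the change with the term was -0.58 ± 0.255 (SE, edgeR adjusted p = 1). FCGR1A, at 2.51 and 1.71 CPM in B412_mock and 1.47 and 0.89 with GSK126, was again the only tested member without overlap, against 12.5% of tested genes. Its log2 change was -0.86 ± 1.07 (SE, adjusted p = 1).

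The remaining members had small changes or wide intervals with GSK126. CD33 had a log2 change of -0.01 (95% interval -0.65 to 0.62) and CD4 one of 0.03 (-0.36 to 0.41). TLR2 had a change of -0.30 (-1.12 to 0.52) and CD86 one of -0.30 (-3.00 to 2.41). For TLR4 the within-set differences disagreed in size and sign (0.96 and -0.05), and the change was 0.37 (-0.40 to 1.15). The median over the 7 tested members was -0.30 with the term, beside 0.01 over all genes.

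B412_GSK126 against MT_mock shares libraries with both other comparisons and adds no independent evidence. No member passed in edgeR without or with the term, where 0% and 1.9% of all genes did. TLR2 had a log2 change of -1.07 ± 0.348 (SE, adjusted p = 0.163) and TLR4 one of -0.84 ± 0.326 (SE, adjusted p = 0.244), both of one sign in the 2 sets. FCGR1A had 20 and 12 counts with GSK126 and did not overlap MT_mock, as 12.1% of tested genes did not. Its log2 change was 1.58 ± 1.04 (SE, adjusted p = 0.513).

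In the list of other Fc receptors, signalling chains and kinases, FCER1G and TYROBP were higher and FCGRT lower in B412_mock. With the set term 3 of 9 tested genes of the Fc receptor list passed in B412_mock against MT_mock, 2 higher and 1 lower, and the fit without the term called 0. FCER1G, the chain through which FCGR1A signals, gave 6, 24 and 29 counts for MT_mock against 58 and 151 for B412_mock. It rose 4.79-fold (edgeR with the term, log2 change 2.26 ± 0.514 SE, adjusted p = 0.0433). TYROBP, a signalling chain for other activating receptors of myeloid and NK cells, had 7, 0 and 14 counts against 62 and 164, and rose 15.1-fold (adjusted p = 0.0183). FCGRT, the neonatal Fc receptor that recycles IgG, fell 4.79-fold (adjusted p = 0.0095), from 340, 156 and 172 CPM to 48.5 and 43. FCER1G and FCGRT lost their calls without MT_mock replicate 3 or either B412_mock library, and TYROBP without either B412_mock library, with adjusted p up to 0.401, 0.234 and 0.234.

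**Figure D4:**
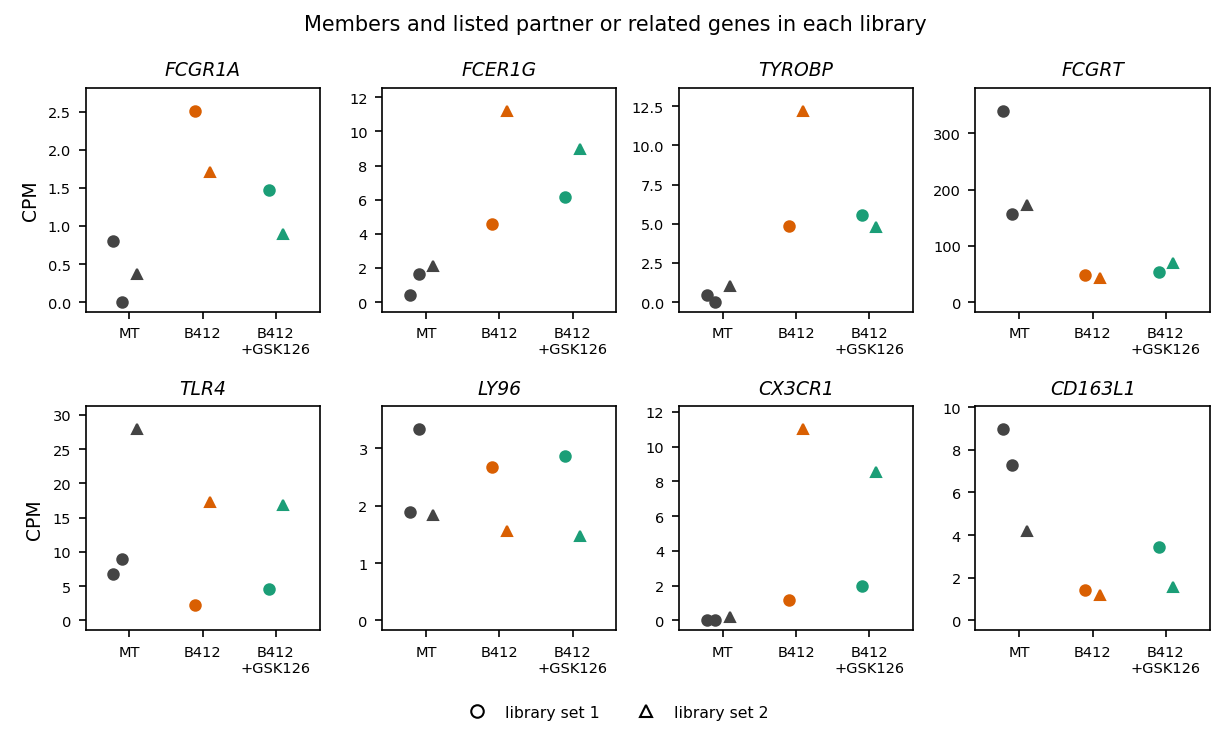
CPM in each library of FCGR1A and 3 genes of the Fc receptor list, of TLR4 and its partner LY96, and of CX3CR1 and CD163L1, each panel with its own axis from 0; circles are library set 1 and triangles library set 2. FCER1G and TYROBP are higher and FCGRT and CD163L1 lower in both B412_mock libraries than in the 3 MT_mock ones.

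Among relatives of CCR2 and CD163, CX3CR1 was read mainly in the B412 groups and CD163L1 in every library. CX3CR1, the fractalkine receptor of non-classical monocytes, gave 0, 0 and 3 counts for MT_mock, 15 and 148 for B412_mock, then 27 and 115 for B412_GSK126. It rose in B412_mock with the set term (edgeR adjusted p = 0.00409), with a count ratio of 88.8 (exact 95% counting interval 29.9 to 435), and lost the call without B412_mock replicate 2 (adjusted p = 0.091). The ratio rests on 3 counts in 1 MT_mock library, and the fitted log2 change of CX3CR1 ran from 3.95 to 9.29 as each library was omitted, without or with the term. It was the only call among 9 tested chemoattractant receptors. CD163L1, a scavenger receptor related to CD163, went from 133, 105 and 57 counts in MT_mock to 18 and 16 in B412_mock, and fell 4.6-fold (adjusted p = 0.035), the only call among 9 tested scavenger receptors and lectins. CD163L1 lost its call without MT_mock replicate 2 or 3 or either B412_mock library, with adjusted p up to 0.767.

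No gene was called in B412_mock against MT_mock among 6 tested relatives and co-receptors of the Toll-like receptors, 15 adaptors and kinases, 9 costimulatory genes, 10 genes of the CD33 family and its phosphatases, and 14 cytosolic sensors, without or with the term. At an unadjusted p under 0.05 with the term these lists had 1, 3, 1, 3 and 4 genes. Their median log2 changes with the term were -0.14, -0.09, 0.01, -0.76 and -0.12. LY86, which pairs with CD180 at the surface, was the most abundant Toll-like receptor relative, at 37.6 ± 5.67 CPM (SD, n = 3) in MT_mock and 53.7 ± 5.85 CPM (SD, n = 2) in B412_mock. TLR8, CD80, FCGR3B, CXCR1, MRC1, OLR1, CLEC4D and CLEC4E had 0 counts in all 7 libraries. With GSK126 against B412_mock, 0 genes of any of these lists passed in either fit. Against MT_mock, FCER1G, TYROBP, FCGRT and CX3CR1 were also called in B412_GSK126 with the term (adjusted p = 0.0427, 0.0384, 0.0278 and 0.00378). Omitting 1 library at a time, FCER1G passed in 1 of 7 such fits, TYROBP in 2 and FCGRT in 2, with adjusted p up to 0.247, 0.253 and 0.234, and CX3CR1 in 7. There were 2 further calls in these lists: CLEC12A, an inhibitory lectin of myeloid cells, rose 2.01-fold (adjusted p = 0.0277), and MAVS, the adaptor of cytosolic RNA sensors, fell 1.73-fold (adjusted p = 0.0304). CLEC12A and MAVS each passed in 1 of 7 fits that omitted a library, with adjusted p up to 0.186 and 0.132.

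Of 12 markers of the labelled myeloid cells all were read, and 11 passed the filter. CSF1R, the receptor for macrophage colony-stimulating factor, had only 2 to 9 counts per library. SPI1, which encodes PU.1, had 1108 to 1972 counts. In B412_mock against MT_mock, FCER1G and TYROBP of this list rose with the term, and 2 genes fell: ITGB2, the beta chain of leukocyte integrins (5.8-fold, adjusted p = 0.0041), and CD68, a lysosomal protein of macrophages (3.1-fold, adjusted p = 0.00662). ITGB2 passed in all 7 fits that each omitted a library, and CD68 lost its call without either B412_mock library (adjusted p up to 0.306). B and NK cell markers summed to 100 to 129 CPM in MT_mock, 162 to 169 in B412_mock and 211 to 215 in B412_GSK126. NCAM1 alone averaged 36.9, 85.9 and 118 CPM in these groups. Of 7 tested markers, 5 had a positive and 2 a negative log2 change in B412_mock against MT_mock with the term. Of these NCAM1, a cell adhesion molecule, rose 2.12-fold (adjusted p = 0.00605) and CD79A, a chain of the B cell receptor, fell 4.33-fold (adjusted p = 0.0197), and both lost the call without either B412_mock library (adjusted p up to 0.234 and 0.487). MS4A1, which defines B cells, was at 0 in all libraries. PAX5, a B cell factor, had 18, 18 and 30 counts in MT_mock and 0 in every B412 library. With the term NCAM1 was also called higher in B412_GSK126 against MT_mock (edgeR adjusted p = 0.000677). CD68, ITGB2 and CD79A were called lower there (edgeR adjusted p = 0.000677, 0.0304 and 0.0304). Among the fits that omitted an MT_mock library, ITGB2 lost that call without replicate 2 or 3, and CD79A without replicate 2. Fits that omitted a B412 library left 1 library in a group, and their calls are not given for ITGB2 and CD79A. Over all 7 omissions with the term, the log2 change ran from -1.84 to -1.27 for ITGB2 and from -2.42 to -1.51 for CD79A. Stromal and epithelial markers summed to 0.943 to 6.48 CPM in MT_mock, 4.08 to 8.98 in B412_mock and 5.06 to 9.35 in B412_GSK126, with COL3A1 and CDH1 at 0 throughout. Whether these levels bear on the receptors was not tested. Of 11 T cell markers CD3G, CD8A, CD8B and LCK were at 0 in all libraries, and their summed level was 0.442 to 1.46 CPM in MT_mock, 0.297 to 1.02 in B412_mock and 0.668 to 1.61 in B412_GSK126, while CD4 was at 181 CPM or more. ZBTB16, which encodes PLZF, a part of the fusion, and checks the labels, gave 4, 0 and 0 counts for MT_mock, 22 and 28 for B412_mock, then 7 and 36 for B412_GSK126. ZBTB16 was not called in B412_mock against MT_mock, with a log2 change of 4.08 ± 1.24 with the term (SE, edgeR adjusted p = 0.126). In bulk RNA, fewer cells with a receptor and less RNA per cell cannot be told apart.

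Likeness of pattern was sought for the 3 most abundant members, on log2 CPM centred within each library set over 7 libraries and 9079 genes. CD4 was most like AMBRA1 (r = 0.993), WIPF1 (0.989) and EIF2B2 (0.988). CD33 was most like CRACR2B (0.987), EFTUD1 (0.979) and MSL1 (0.976), and FCGR2A most like PDE1B (0.982), C12orf65 (0.981) and SMARCA2 (0.979). With so few libraries, 123, 96 and 51 genes reached r above 0.9, so these names are a description only.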

How the data were processed

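Per the labels' protocols, RNA was extracted on columns, made into cDNA with a SMART-Seq kit, sheared and built into libraries. The submitters' processing notes name FastQC, Subread, featureCounts and hg19; their versions, settings and annotation were not given in the sources used here. Raw counts were deposited by the authors per gene symbol, in 3 tables with 1 column per library, between 12736244 and 14848130 per library, so 3 counts stand for 0.202 to 0.236 CPM. The kit does not mark strand, so reads of overlapping antisense genes are not separated. Without molecular identifiers, intervals and floors cover counting error only.

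Genes were filtered with filterByExpr (minimum count 10, total 15; 13521 kept, 7 of 10 members), scaled by TMM and fitted in edgeR 4.0.16 (robust quasi-likelihood F test, two-sided) in R 4.3.3 over all 7 libraries, with Benjamini-Hochberg adjustment over all genes and a threshold of 0.05. Standard errors and 95% intervals are derived from the F statistic. The fit had 4 residual degrees of freedom, or 3 with the library-set term. Both were run on simulated counts, with the library sets supplied as known. Such a run cannot show how taking the sets from the counts affects p-values. Log2 CPM used a prior count of 2. DESeq2 1.42.0, other size factors, no filter, a replicate block and leaving out each library were alternatives. Lengths are of the longest GENCODE 29 transcript with a RefSeq mRNA. Of 175 list entries 173 were found. Members and lists were chosen with earlier results of these data known. All members were named, with listed genes past the threshold in either fit, the most abundant gene of some lists without any, and copies and partners of members.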

Additional observations from a re-analysis of the deposited data

How the results depend on the processing

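No member passed an adjusted p of 0.05 in edgeR with the filter on low counts, without or with the library-set term. With the term 1 member, TLR4 in B412_mock against MT_mock, passed in DESeq2, and 1, again TLR4, in edgeR without that filter. Of 441 member values under an alternative, 382 kept their direction and call, 57 changed sign and 2 gained a call. Counts of genes called were 0 in all 3 comparisons in edgeR with the filter and without the term. For B412_mock against MT_mock they were 318 with the term, 95 in DESeq2, 5 without the filter, and 684 and 881 with the term in DESeq2 and without the filter. For B412_GSK126 against B412_mock the latter pair gave 4 and 34, and for B412_GSK126 against MT_mock the counts were 257 with the term, 65 in DESeq2, and 604 and 892 for that pair. With each library left out in turn, without or with the term, the counts ran from 0 to 587, from 0 to 3 and from 0 to 693. With the term, alone, in DESeq2 and without the filter, the log2 change of CD86 in B412_mock against MT_mock turned to 0.05, 0.13 and 0.04, and that of CD4 in B412_GSK126 against B412_mock to 0.03, 0.01 and 0.03. The cause was not tested.

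The labels do not say that a replicate number marks a shared culture or batch. Deviations of same-numbered libraries from their group means correlated at 0.66 and -0.63 for B412_mock with MT_mock, and at 0.62 and -0.63 for B412_GSK126 with MT_mock. For B412_GSK126 with B412_mock, whose replicates 1 and 2 also fell in library sets 1 and 2, the correlation was 0.85. There each group has 2 libraries, so replicates 1 and 2 give the same value by construction. With fewer than 3 pairs the numbers were not taken as pairing. With a replicate block 0 genes were called in all 3 comparisons. In B412_mock against MT_mock the block gave log2 changes of 0.53 for CD4 and 1.92 for CD86, and in B412_GSK126 against MT_mock 0.51 for CD4, 1.62 for CD86 and 0.20 for FCGR2A.

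Leaving out each library changed the sign of these log2 changes, whose ends came mostly from fits without the term. For B412_mock against MT_mock CD33 ran from -0.09 to 0.41, CD4 from -0.92 to 0.73, CD86 from -0.72 to 1.26, FCGR2A from -0.22 to 0.89, TLR2 from -1.27 to 0.07 and TLR4 from -2.59 to 0.15. For B412_GSK126 against B412_mock CD33 ran from -0.13 to 0.11, CD4 from -0.65 to 0.82, CD86 from -0.98 to 0.52, FCGR2A from -1.17 to 0.01, TLR2 from -0.75 to 0.24 and TLR4 from -0.93 to 2.07. For B412_GSK126 against MT_mock CD33 ran from -0.10 to 0.40, CD4 from -0.67 to 0.65, CD86 from -0.99 to 1.00, FCGR2A from -0.81 to 0.32 and TLR4 from -1.60 to 0.29. Depth limits CD14, CCR2 and CD163, which had at most 13 counts in any library.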
